A study of Mus musculus with 4 samples.

Results

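The genes described here are 6 transcription factor genes that stand for competing lineage choices in early T-cell development: Sfpi1 (current symbol Spi1, encoding PU.1), Spib, Bcl11a, Bcl11b, Gfi1 and Gfi1b. They were chosen by name, as the rows of the deposited files with these symbols, and all 6 were listed in every library, among 33114 named genes. The RNA-seq libraries came from flow-sorted thymocytes of Rag1-/- mice, which cannot assemble antigen receptor genes. The 4 groups were C57BL/6 (B6) Rag1-/- thymocytes at 4 weeks and at 7 weeks, and NOD Rag1-/- thymocytes at 4 weeks and at 6.5 weeks, with 1 library each. All groups carried the Rag1 deletion, so no Rag1-sufficient control was compared. The labels name neither the markers of the sort nor the number of animals behind a library, and the older B6 and NOD mice differed in age. Values of all libraries are given with B6 first and the 4-week library first within a strain.

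PU.1 is an ETS-family factor of stem cells, myeloid cells and B cells that is switched on in the earliest thymic progenitors and turned off as they commit to the T lineage. Spi-B is its closest relative and is used by B cells and plasmacytoid dendritic cells. Bcl11b is the zinc finger factor that T-lineage commitment depends on, and its paralogue Bcl11a serves B-cell and progenitor programmes. Gfi1 and Gfi1b are paralogous zinc finger repressors that share a corepressor and recognise DNA with an AATC core. Gfi1 is used in T cells and granulocytes, whereas Gfi1b is best known from red cell and platelet precursors.

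Levels are RPKM, read density per kilobase at a common depth, which allows genes of different length to be compared. RPKM values were converted to reads with a depth recovered from the files, which was 17050000 and 21200000 for the B6 libraries and 17270000 and 24050000 for the NOD libraries. Intervals at 95% (Poisson for a level, exact Clopper-Pearson for a ratio) cover counting error only, and no animal-to-animal spread is known for any group. The share of the depth that fell in listed features was 52.6% in B6 week 7 and 61.4% to 67.0% in the other libraries. A single feature, LOC672857, held 3.97% of the listed reads in B6 week 7 and 1.19% to 1.65% elsewhere. The median of all genes is therefore given for comparisons with that library. Rag1 was at 132.9 and 108 in B6 and 121.4 and 91.7 in NOD; which part of it is deleted is not stated, so these reads check no label. Early T-cell markers were present, with Il2ra (interleukin-2 receptor alpha) at RPKM 422.4 to 531.1 and Ptcra (pre-TCR alpha) at 173.1 to 317.7. Cd8a, with up to 100% of its reads shared with other places, was at 0.16 or less. Fewer cells of a type and less RNA per cell cannot be told apart in such bulk libraries.

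Promoter sequences are shown for Gfi1b and Gfi1, paralogues with very unequal levels here, for Bcl11b, the most abundant of the 6, and for Spib, whose strain values did not overlap. Each line gives the 120 bases before the RefSeq start in build GRCm38.p6, on the gene's strand. Capitals mark TAATCA or AAATCA, both holding the AATC core, and GAGGAA, an ETS-type element of the kind PU.1 recognises. Both strands were searched, so GAGGAA can appear as its reverse complement. RefSeq rows were found for 5 of the 6 genes, all except Sfpi1.
Gfi1b, chr2:28621983-28622102, minus strand: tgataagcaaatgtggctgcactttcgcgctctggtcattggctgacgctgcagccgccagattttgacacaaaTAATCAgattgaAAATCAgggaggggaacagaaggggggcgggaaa
Gfi1, chr5:107725806-107725925, minus strand: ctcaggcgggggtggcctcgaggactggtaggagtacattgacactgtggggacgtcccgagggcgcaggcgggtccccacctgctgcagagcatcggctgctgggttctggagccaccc
Bcl11b, chr12:108003415-108003534, minus strand: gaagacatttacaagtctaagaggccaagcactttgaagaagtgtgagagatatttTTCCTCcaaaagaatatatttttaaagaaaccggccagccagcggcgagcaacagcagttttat
Spib, chr7:44532072-44532191, minus strand: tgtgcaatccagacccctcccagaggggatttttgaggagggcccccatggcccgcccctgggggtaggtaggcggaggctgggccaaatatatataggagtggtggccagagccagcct
Over the 250 bases before the start, Gfi1b held TAATCA and AAATCA once each, at positions -46 to -41 and -34 to -29 counted from the start. Of 32851 promoters in the table, 7.21% held TAATCA, 12.4% AAATCA and 1.56% both. No such match was found in the windows of the other 4 genes, including both listed starts of Gfi1. Bcl11b held GAGGAA at 2 places, against 23.3% of promoters with at least 1 match, and the other 4 genes had none. A match describes letters and was not tested for binding.

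Bcl11b and Gfi1, the T-lineage genes of the set, were the most abundant and the least variable across libraries. Bcl11b stood at RPKM 101.9 and 77.4 in B6 and 98.8 and 82.9 in NOD, each from 13007 reads or more. It exceeded at least 98.4% of all genes in every library, and its highest value was 1.32 times its lowest. Gfi1 followed at 36.9 and 23.3 in B6 and 37.04 and 32.6 in NOD, a range of 1.59-fold. For both genes the 2 week 4 libraries were the highest and B6 week 7 the lowest, and the strains overlapped.

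Spib, the gene of the B-lineage and plasmacytoid factor Spi-B, was well expressed in all libraries. The libraries gave RPKM 17.4 and 8.01 for B6 and 25.7 and 19.3 for NOD, from 473 to 1295 reads. Both NOD libraries were above both B6 libraries, and the nearest pair, NOD week 6.5 and B6 week 4, differed 1.11-fold (95% interval 1.02 to 1.22). Bcl11a was low, at 1.54 and 0.66 in B6 and 2.30 and 1.44 in NOD, with the highest value in NOD week 4 and the lowest in B6 week 7, as for Spib. The 95% intervals of Bcl11a in B6 week 4 (1.22 to 1.92) and NOD week 6.5 (1.18 to 1.75) overlapped.

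Sfpi1, the PU.1 gene, had a different order. Its RPKM was 1.23 and 0.57 in B6, on 28 and 16 reads, and 0.30 and 1.44 in NOD, on 7 and 46 reads. The 2 high libraries, NOD week 6.5 and B6 week 4, did not differ beyond counting error (1.17-fold, 0.713 to 1.94), nor did the 2 low ones (NOD week 4 over B6 week 7, 0.526-fold, 0.187 to 1.38). NOD week 6.5 thus stood apart from NOD week 4 and B6 week 7, but its PU.1 level lay within the range allowed for B6 week 4. In NOD week 6.5 Spib was 13.4 times as abundant per length as Sfpi1 (10.04 to 18.5), close to the 14.1 and 14.1 of the B6 libraries, whereas in NOD week 4 it was 85.6 times as abundant (40.9 to 211).

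Gfi1b was the lowest of the 6 in 3 of 4 libraries, at RPKM 0.35 and 0.08 in B6, on 10 and 3 reads, and 0.69 and 0.74 in NOD, on 20 and 30 reads; only in NOD week 4 was it above Sfpi1. Both NOD values lay above both B6 values, although the intervals of NOD week 4 (0.422 to 1.07) and B6 week 4 (0.168 to 0.643) overlapped. Gfi1b, whose promoter above holds both AATC-core motifs, was at 0.949% and 0.343% of the RPKM of Gfi1 in B6 and at 1.86% and 2.27% in NOD. The NOD week 6.5 share (1.54% to 3.27%) and that of NOD week 4 (1.14% to 2.89%) lay above that of B6 week 7 (0.0745% to 1.06%), while both overlapped that of B6 week 4 (0.454% to 1.75%).

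**Figure D1:**
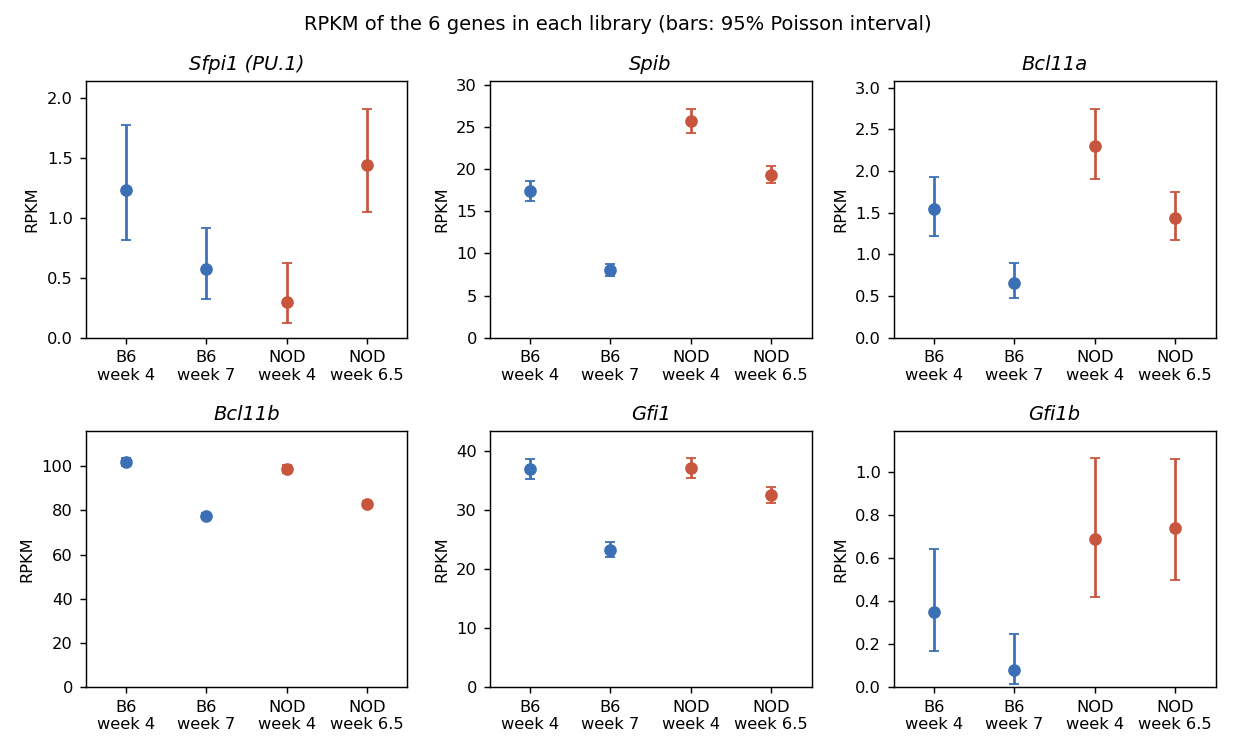
RPKM (vertical axes, each starting at 0) of the 6 genes in the 4 libraries, with bars for the 95% Poisson interval of the reads; B6 is blue and NOD red. Bcl11b runs only from 77.4 to 101.9, whereas Sfpi1 runs from 0.30 to 1.44 with its highest point in NOD week 6.5.

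Ratios within a library do not depend on how libraries are scaled to each other. The RPKM of Sfpi1 was 1.21% of that of Bcl11b (95% interval 0.803% to 1.75%) and 0.736% (0.418% to 1.19%) in B6. In NOD it was 0.304% (0.124% to 0.634%) at 4 weeks and 1.74% (1.27% to 2.31%) at 6.5 weeks. The interval of NOD week 4 was below those of B6 week 4 and NOD week 6.5. Spib stood at 17.04% and 10.3% of Bcl11b in B6, against 26.0% and 23.3% in NOD. The NOD shares of Spib were higher than the B6 shares by more than the counting error, and the lowest NOD interval began at 22.01% where the highest B6 interval ended at 18.3%. Bcl11a stood at 1.51%, 0.852%, 2.33% and 1.74% of Bcl11b, and Gfi1 at 36.2%, 30.1%, 37.5% and 39.3%. Gfi1 kept the narrowest range of these shares, and the lowest share of Gfi1, Spib and Bcl11a was in B6 week 7.

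**Figure D2:**
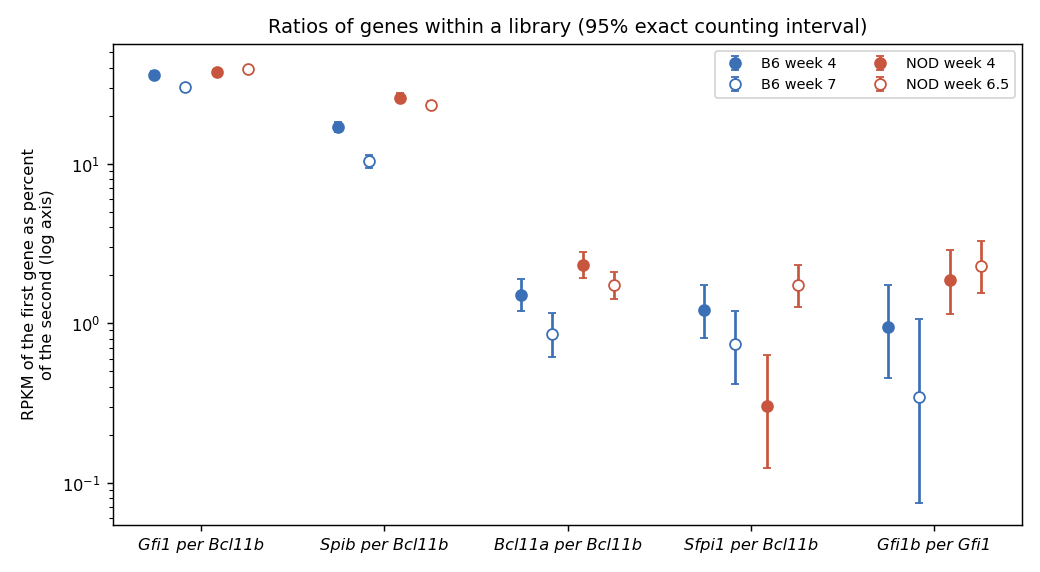
RPKM of the first gene as a percentage of the second within each library (log axis), with 95% exact counting intervals; filled points are week 4 and open points the later age. Sfpi1 per Bcl11b is lowest in NOD week 4 (0.304%) and highest in NOD week 6.5 (1.74%), while Spib per Bcl11b is 23.3% or more in both NOD libraries.

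The NOD age comparison set week 6.5 against week 4, with 1 library each and so no replicate check or p-value. A gene was counted as different where RPKM + 0.1 differed 2-fold and RPKM was 1 or more in either library, which 2.23% of 12565 genes met, 1.5% as higher. Of the 6 genes 5 passed this floor and 1 was counted, Sfpi1, as higher; it passed the floor through week 6.5 alone. Its RPKM was 4.80-fold higher at week 6.5 (2.12 to 12.4) and its ratio was above that of 99.6% of genes. Because only 7 reads lie behind the week 4 value, the size of this ratio is known poorly. The gene was no longer counted with 1 added to RPKM, where its log2 ratio was 0.91.

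Of the other 5 genes, 4 had ratios under 1. Bcl11a was 1.60-fold lower at week 6.5 (1.21 to 2.09), Spib 1.33-fold lower (1.23 to 1.44), Bcl11b 1.19-fold lower (1.16 to 1.22) and Gfi1 1.14-fold lower (1.07 to 1.21), each less than 2-fold. Gfi1b, below the floor, had a ratio of 1.07 (0.592 to 2.001), so its level was not distinguishable between the 2 ages at this depth. A lower ratio than that of Bcl11a was found in 2.56% of genes, and than that of Spib in 7.26%.

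The B6 age comparison set week 7 against week 4. All 6 genes were lower at week 7, in libraries where the median gene was also lower by 0.36 on the log2 scale. By the 2-fold rule 2 of the 5 genes above the floor were counted, Spib and Bcl11a, both as lower. Bcl11a and Sfpi1 passed the floor through week 4 alone, so they could not have been counted as higher. Of 12355 genes 7.11% were counted, 6.35% as lower, and rescaling by a trimmed mean of ratios (TMM) turned 95 higher and 784 lower genes into 283 and 222. Spib was 2.17-fold lower (1.93 to 2.43), Bcl11a 2.33-fold (1.59 to 3.49) and Sfpi1 2.16-fold (1.14 to 4.31), although Sfpi1 missed the rule with 0.1 added. Relative to the median gene the log2 differences were -0.75 for Spib, -0.75 for Bcl11a, -0.63 for Sfpi1, -0.30 for Gfi1 and -0.04 for Bcl11b. After rescaling none of the 6 was counted, against 4.07% of all genes, with Spib 1.74-fold, Bcl11a 1.87-fold and Bcl11b 1.05-fold lower. Gfi1b was 4.38-fold lower (1.07 to 23.4), on 3 reads at week 7 and 10 at week 4.

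The age ratios of the strains were set side by side for each gene. For Sfpi1 the log2 change with age was 1.94 in NOD and -0.99 in B6, a difference of 2.93 that lay above 99.7% of 12956 genes. A 2-fold difference between the age changes was found in 10.4% of these genes, 1107 higher in NOD and 238 lower, or 532 and 468 with TMM. For Gfi1b the difference was 1.41, from 0.09 in NOD and -1.32 in B6, on few reads. The differences were 0.70 for Spib, 0.48 for Gfi1, 0.47 for Bcl11a and 0.14 for Bcl11b, around a median of 0.32 for all genes. With TMM rescaling Sfpi1 was at 2.68, Bcl11b at -0.14 and the median gene at 0.04. With 1 library per strain and age these differences could not be tested.

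The strain comparison pooled the 2 ages of each strain, in a limma fit of log2(RPKM + 1) over the 12413 genes that reached RPKM 1 in 2 libraries. It called 4.37% of genes at an adjusted p of 0.05. None of the 5 members that passed the filter was called. Without adjustment the p of 1 member was under 0.05, against 12.7% of all genes. That gene was Spib, at 22.5 ± 4.50 RPKM (mean ± SD, n = 2) for NOD against 12.7 ± 6.62 for B6, a log2 difference of 0.86 ± 0.35 (SE). The limma p of Spib was 0.0442 unadjusted. Its limma adjusted p was 0.372, and 0.0252 when age class was a block, a fit with 1 residual degree of freedom that called 8.1% of genes. With each library left out in turn the log2 difference of Spib in limma was 1.37 without B6 week 4 (adjusted p = 0.0176, in a fit that called 3371 genes) and 0.34 without B6 week 7 (adjusted p = 0.409). It was 0.66 without NOD week 4 and 1.05 without NOD week 6.5, with limma adjusted p of 0.9999 and 0.458. The median log2 difference of all genes fitted was 0.096. NOD and B6 values did not overlap for 2 of the 6 genes, Spib and Gfi1b, and for 43.9% of the genes fitted. Gfi1b was not among the genes fitted, so Spib alone among the 5 fitted members compares with that share.

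Like Spib in the fit with strain as the only term, the remaining genes were not told apart by strain. For Bcl11b the NOD mean was 90.9 ± 11.2 and the B6 mean 89.7 ± 17.3 (SD, n = 2), with a limma log2 difference of 0.03 ± 0.26 (SE) that became -0.087 with TMM. Gfi1 was at 34.8 ± 3.15 in NOD and 30.1 ± 9.60 in B6, and Bcl11a at 1.87 ± 0.608 and 1.10 ± 0.622. Sfpi1 was at 0.870 ± 0.806 and 0.900 ± 0.467, with NOD below B6 at 4 weeks and above it at the later age. The limma adjusted p of these 4 genes ran from 0.536 to 0.977. Without B6 week 4 Gfi1 was called in limma, with a log2 difference of 0.56 and an adjusted p of 0.0408. Gfi1b, with means of 0.715 ± 0.0354 and 0.215 ± 0.191, was below the filter, and in a limma fit without a filter its adjusted p was 0.548.

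At week 4, NOD against B6 counted Sfpi1 alone among the 5 genes above the floor, as 4.10-fold lower in NOD (1.73 to 11.0), where 7.94% of 12640 genes were counted in either direction and 3.59% as lower. Sfpi1 passed the floor through B6 week 4 alone, so it could not have been counted as higher in NOD. Spib was 1.48-fold higher in NOD (1.35 to 1.62) and Bcl11a 1.49-fold (1.11 to 2.002). Bcl11b and Gfi1 were nearly level, with ratios of 0.970 (0.947 to 0.993) and 1.004 (0.940 to 1.07). The Sfpi1 value of NOD at this age rests on 7 reads, and with 1 added to RPKM the gene was not counted (log2 ratio -0.78).

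Between NOD week 6.5 and B6 week 7 all 6 genes had a ratio above 1 (with TMM, all but Bcl11b at 0.897), in a comparison where the median gene was higher by 0.28 (log2). Sfpi1 (2.53-fold, 1.41 to 4.80), Spib (2.41-fold, 2.17 to 2.69) and Bcl11a (2.18-fold, 1.51 to 3.20) were counted as higher by the rule, with 12.9% of 12643 genes counted, 9.75% as higher. Sfpi1 and Bcl11a passed the floor through NOD week 6.5 alone, so they could not have been counted as lower. TMM rescaling turned 1233 higher and 393 lower genes into 778 and 648, 11.2% in all. After it 1 of the 3 was counted, Spib, the ratios without a pseudocount being 2.12, 2.02 and 1.83 in the order above. Gfi1 was 1.40-fold higher (1.31 to 1.49), Bcl11b 1.07-fold (1.05 to 1.10) and Gfi1b 9.25-fold (2.74 to 45.1), the last with 3 reads in B6 week 7. Against B6 week 4 the same NOD library had 2.11-fold more Gfi1b (1.01 to 4.88). Relative to the median gene the log2 differences were 0.98 for Spib, 0.92 for Sfpi1 and 0.74 for Bcl11a, all under 2-fold, and 0.20 for Gfi1 and -0.18 for Bcl11b.

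**Figure D3:**
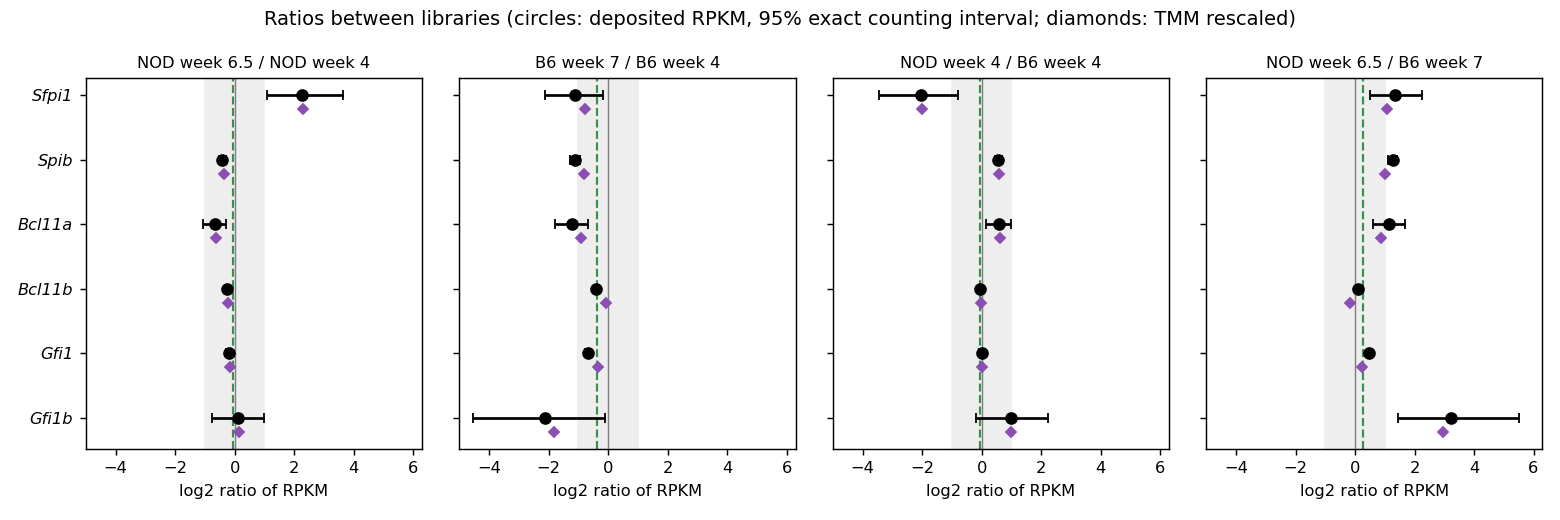
Log2 ratio of RPKM (no pseudocount) between 2 libraries for the 6 genes, with 95% exact counting intervals (circles) and after TMM rescaling (diamonds). The grey band spans 2-fold either way and the dashed line is the median gene (RPKM + 0.1); in NOD week 6.5 over week 4 only Sfpi1 lies outside the band (4.80-fold), and in B6 week 7 over week 4 all 6 genes lie below 0.

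Genes with the profile most like each member were found by the distance between log2(RPKM + 0.1) values, centred per gene, over the 4 libraries and 8812 genes with under 10% shared reads. Gfi1b, under RPKM 1 in every library, was left out. For Sfpi1 they were Emilin2 (distance 0.28), Cd160 (0.36), a receptor of NK and T cells, and Tmem40 (0.38). Emilin2 had RPKM of 2.12 and 1.22 in B6 and 0.77 and 3.04 in NOD, and Cd160 of 2.63 and 1.64 in B6 and 0.75 and 2.73 in NOD. For Spib the nearest were BC027057 (Tifab) at 0.08, Noxo1 at 0.08 and Rhbdl1 at 0.08, and for Bcl11a BC026585 (Cryzl2) at 0.11, Rogdi at 0.15 and Cpne5 at 0.16. Bcl11b was closest to 2310073E15Rik (Nr2c2ap) at 0.01, Ppil5 (Lrr1) at 0.02 and Vhlh (Vhl) at 0.02, and Gfi1 was closest to Dffb at 0.02, Sin3b at 0.03 and Nsf at 0.03. Among the members, Spib and Bcl11a were the most alike (0.21) and Gfi1b and Sfpi1 the least (2.23). With 4 points these distances describe an order of libraries only.

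Progenitor genes that are normally silenced at commitment showed the order of Sfpi1 in part. In the NOD age comparison 6 of the 9 genes of this list above the floor were counted as higher at week 6.5, against 1.5% of all genes. Of these 6, Lmo2, Hhex and Lyl1 passed the floor through NOD week 6.5 alone and could not have been counted as lower, and the list was chosen with earlier results known. Lyl1, a partner of Lmo2, was at RPKM 3.84 and 1.47 in B6 and 0.90 and 8.39 in NOD, and Hhex, a homeobox factor of early progenitors, at 1.69 and 0.64 in B6 and 0.68 and 6.5 in NOD. Both had NOD week 6.5 highest and B6 week 4 second, as Sfpi1 had. Lmo2 was near 0 in B6 (0.31 and 0.11) and stood at 0.44 and 5.0 in NOD, and Kit, the stem cell factor receptor, was at 7.62 and 4.25 in B6 and 6.33 and 19.4 in NOD. In the B6 age comparison 2 of 8 list genes were lower (Lyl1 and Hhex) and 1 higher (Mef2c). Of all genes 7.11% were counted there, 6.35% as lower, and with TMM 1 list gene was lower and 1 higher. Hhex passed the floor through B6 week 4 alone and Mef2c through B6 week 7 alone, so each could be counted in 1 direction only. The other 3 genes above the floor in the NOD age comparison stayed within 2-fold. In NOD week 4 and week 6.5 Erg was at 13.8 and 17.6, Mycn at 8.38 and 6.68, and Gata1 at 2.79 and 1.42 (0.509-fold, 0.363 to 0.717). The remaining 6 of 15 list genes were below the floor, namely the progenitor genes Flt3, Tal1, Gata2, Meis1, Hoxa9 and Cd34, with Cd34 highest at 0.74 in B6 week 4.

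Myeloid genes, several of them activated by PU.1 in macrophages and granulocytes, were mostly near 0. Of 18 list genes, 4 to 6 reached RPKM of 1 in a library. The macrophage receptor gene Csf1r was at 0.05 to 0.13, the integrin gene Itgam at 0.15 to 0.53, the granule gene Mpo at 0.14 to 0.36, and Ela2 (Elane), the neutrophil elastase gene, was listed at 0 in all libraries. Summed RPKM of the list came to 42.1 and 35.1 for B6 and 45.1 and 39.5 for NOD, and Lyzs (Lyz2), the lysozyme gene, with up to 31% shared reads, held 21.3 to 25.8 of it. In the NOD age comparison 3 of 6 genes above the floor were counted as higher, against 1.5% of all genes: Fcer1g at 2.28 against 0.88, Tyrobp at 3.58 against 1.63, both signalling adaptors that NK cells also use, and Ctsg, a granule protease, at 1.16 against 0.35. Fcer1g and Ctsg passed the floor through NOD week 6.5 alone, so they could not have been counted as lower. The other 3 had ratios under 1: Csf2ra, a cytokine receptor chain, at 7.56 against 12.7 (0.597-fold, 0.515 to 0.695), Lyzs at 0.829-fold and Cd68, a macrophage glycoprotein, at 1.98 against 2.30. Cpa3, a mast cell protease gene also found in progenitors, was at 19.4 and 18.9 in B6 and 5.34 and 43.6 in NOD, while the mast cell genes Ms4a2 and Fcer1a were at 0.04 or less. The part of other cells in the Sfpi1 values was not tested.

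**Figure D4:**
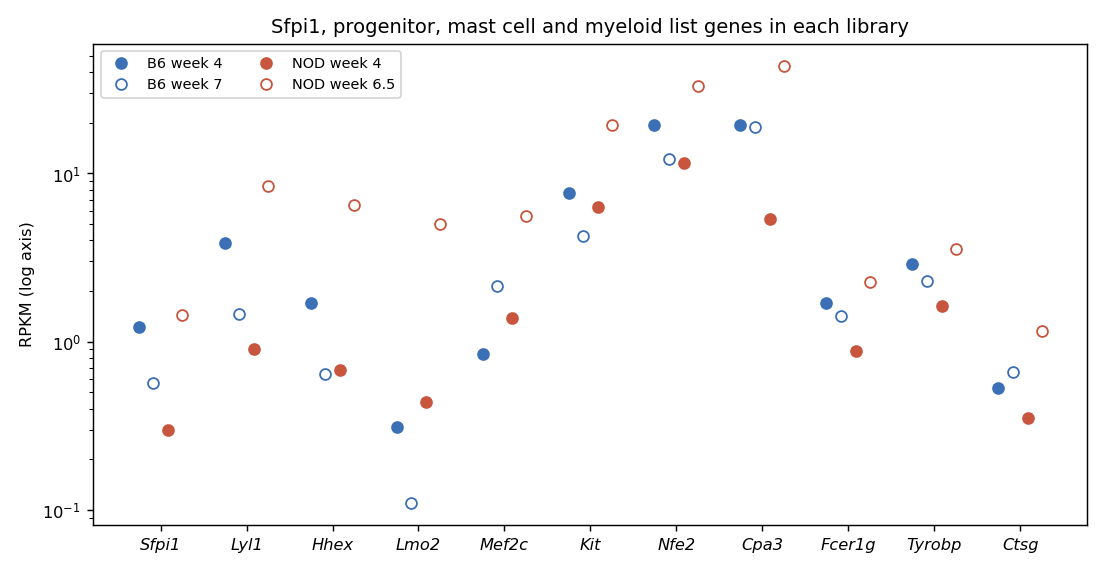
RPKM (log axis) of Sfpi1, of the 6 progenitor list genes that were 2-fold higher in NOD week 6.5, and of Cpa3, Fcer1g, Tyrobp and Ctsg, in each library; filled points are week 4 and open points the later age. Except for Sfpi1 the genes were taken from their lists for being 2-fold higher in NOD week 6.5 than in NOD week 4, so that order is given by the choice; NOD week 4 is the lowest of all libraries for Sfpi1 (0.30), Lyl1, Nfe2, Cpa3, Fcer1g, Tyrobp and Ctsg.

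B-lineage genes were mostly near 0, although Spib was well expressed. Pax5 was listed at 0 in all libraries, and Ebf1 was at 0.03 or less, while Cd79b, also transcribed in thymocytes, was at 37.4 and 26.96 in B6 and 28.7 and 23.8 in NOD. Of the 4 B-lineage genes above the floor in the NOD age comparison 2 were 2-fold higher, against 1.5% of all genes. They were Btk at 3.42 against 1.21 and Pou2af1, above the floor at week 6.5 alone, at 1.83 against 0.41. In the strain comparison limma called 1 of 4, against 4.37% of all genes fitted. This was Cd72, a B-cell coreceptor, lower in NOD (limma adjusted p = 0.0158), at RPKM 1.16 and 1.41 in B6 and 0.16 and 0.18 in NOD. Cd72 passed the filter through the B6 libraries alone, so it could not have been called as higher in NOD. The plasmacytoid genes Siglech and Pacsin1 were at 0.08 or less, whereas Ly6d was at 258.4 to 358.0. Of 7 plasmacytoid list genes above the floor none differed 2-fold in any of the 4 comparisons, against 2.23% to 12.9% of all genes.

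T-lineage genes beside Bcl11b mostly stayed within 2-fold between the NOD libraries. The 25 genes of this list above the floor had a median log2 ratio of -0.13. At NOD week 6.5, 2 of them were 2-fold higher, against 1.5% of all genes, and 0 lower. The 2 were surface receptor genes, Cd5, above the floor at week 6.5 alone, at RPKM 3.31 against 0.64 and Cd6 at 6.04 against 2.46. Tcf7, the gene of the commitment factor TCF-1, was at 284.0, 159.8, 280.6 and 290.3, and Gata3 at 20.8, 14.8, 23.2 and 19.2. Of NK and innate lymphoid genes, 1 of 3 above the floor was 2-fold higher at NOD week 6.5, against 1.5% of all genes. It was the protease gene Gzmb at 7.67 against 0.41 (above the floor at week 6.5 alone). Nkg7 and Id2, the others of this list above the floor, stayed within 2-fold between the NOD libraries. Nkg7, the most abundant of the list in every library, was at 58 and 46.44 in B6 and 32.07 and 34.19 in NOD. Id2 was at 4.64 in NOD week 4, with a ratio of 0.754 for week 6.5 over week 4. The NK receptor gene Ncr1 was at 0.28 or less in every library.

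Other ETS-family genes offered a background for Sfpi1 and Spib. Of 21 relatives 13 were above the floor and none differed 2-fold in any of the 4 comparisons. Of all genes 2.23% did between the NOD ages and 7.11% between the B6 ages. Between strains 7.94% did at week 4 and 12.9% at the later age. Ets1, the most abundant, was at 109.2, 86.2, 129.8 and 115.8, and Spic, the third member of the PU.1 subfamily, was at 0.09 or less. Each of the 13 exceeded Sfpi1 in RPKM in every library.

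Partners of these factors were also measured. Of 19 corepressor genes (LSD1 and CoREST, used by Gfi1 proteins, and the NuRD complex, used by Bcl11 proteins) 17 were above the floor. None of them differed 2-fold in the NOD age comparison, against 2.23% of all genes. Aof2 (Kdm1a, LSD1) was at 31.4, 18.8, 28.9 and 30.3, and Chd4 of NuRD at 106.0, 61.3, 111.3 and 107.1. In B6 week 7 against week 4 the median of this list was -0.66 against -0.36 for all genes. Mbd3 alone of the 17 was counted as lower there, at 32.3 against 69.6, against 6.35% of all genes, and none with TMM. In NOD week 6.5 against B6 week 7 Ehmt2 alone was counted as higher, at 43.6 against 21.5, against 9.75% of all genes, and none with TMM. Among genes reported as Gfi1 or Gfi1b targets, 8 of 15 were above the floor. None of these targets differed 2-fold in any of the 4 comparisons, against 2.23% to 12.9% of all genes. They included Cdkn1a, the p21 gene, at 32.3, 19.0, 55.1 and 31.9. Of the PU.1 partners and antagonists 0 of 7 above the floor differed 2-fold between the NOD ages, against 2.23% of all genes. In B6 week 7 against week 4, 2 of 9 were lower, Cebpb and Fos (1 with TMM), against 6.35% of all genes. In NOD against B6 at week 4, 1 of 9 was lower, Fos, against 3.59% of all genes. Both genes passed the floor through B6 week 4 alone, so they could not have been counted as higher. Irf8 was at 2.82, 1.59, 1.54 and 1.25 and Cebpa at 0.05 or less. Gata1, a PU.1 antagonist, was at 3.96, 2.63, 2.79 and 1.42.

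Red cell genes had another order than Gfi1b. Hba-a1 and Hbb-b1, globin genes with up to 100% and 92% shared reads, together made up most of this list's summed RPKM of 42.6, 12.6, 44.8 and 7.22. Both were highest in the week 4 libraries. The erythroid factor gene Klf1 was at 0.09 to 0.42. Gfi1b was at 0.69 and 0.74 in NOD week 4 and week 6.5, on 20 and 30 reads (ratio 1.07, 0.592 to 2.001). The summed RPKM of the red cell list was 44.8 and 7.22 there. The part of red cells in the Gfi1b values was not tested.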

How the data were processed

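The authors deposited 1 table per library with RPKM, gene model length and the fraction of a gene's reads mapping to more than 1 place (shared reads), per the file headers. The submitters' processing notes name Bowtie 0.12.1 and build mm9. No strand-keeping step is described in the labels, so antisense reads cannot be separated. How reads were counted, and how shared reads were divided, was not given in the sources used here. Shared reads were 7% or less for the 6 genes. NOD week 6.5 stood apart in that fraction: among genes with RPKM of 5 or more its median was 0.03, against 0 in the other libraries.

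Depth was recovered as the value at which RPKM times length of genes of at most 0.6 kb (product under 0.5, no shared reads) gave whole reads; 97.9% to 100% lay within 0.1 reads of a whole number, where 20% are reached by chance. A library's intervals came from these reads. The strain fit used limma 3.58.1 in R 4.3.3 with an intensity trend, strain as the only term, 2 residual degrees of freedom, two-sided p-values and the Benjamini-Hochberg method. Its replicates are the 2 ages of a strain, so its p-values measure the spread between these libraries. Comparisons of 2 libraries carry no test. Alternatives were another pseudocount, RPKM floors, TMM (unweighted), genes under 10% shared reads, an age block and each library left out. Depth recovery and the limma fit were tested on simulated data. Of 185 list entries 184 matched, by Entrez identifier or symbol (RefSeq table, GRCm38.p6); Igll1 did not. List counts leave out the 6 genes. Genes named are the members, list genes past 2-fold with others for contrast, and the 3 nearest profiles per member; the marker genes near 0 were named after their values were seen. Members and lists were chosen with earlier results of these data known.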

Additional observations from a re-analysis of the deposited data

Results flagged for a closer look

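The age change of Sfpi1 had opposite signs in the strains, higher in NOD and lower in B6, with a difference of 2.93 on the log2 scale. Gfi1b also had opposite signs, with a difference of 1.41, but its NOD ratio of 1.07 had a counting interval that includes no change (0.592 to 2.001). Neither difference was tested, since each strain and age had 1 library. With a pseudocount of 1 the differences were 1.41 for Sfpi1 and 0.36 for Gfi1b.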

How the results depend on the processing

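The 6 genes were few and partly low, so the count of members past 2-fold moved with the settings. It was 1 for NOD week 6.5 against week 4, and 0 with a pseudocount of 1 or an RPKM floor of 5. It was 2 for B6 week 7 against week 4, 1 with either of these settings and 0 with TMM. It was 1 for NOD against B6 at week 4 and 0 with either setting, and 3 for NOD week 6.5 against B6 week 7 and 1 with either setting or TMM. Over all genes, the counts in the order of these 4 comparisons were 280, 879, 1004 and 1626. They were 106, 400, 599 and 925 with a pseudocount of 1, 86, 517, 439 and 796 with a floor of 5, and 1113, 1818, 2336 and 2907 with no floor. Genes under 10% shared reads gave 183, 541 and 1011 for all but the B6 age comparison, where TMM gave 505. TMM also moved the split: B6 week 7 went from 95 higher and 784 lower to 283 and 222, NOD week 6.5 against B6 week 7 from 1233 and 393 to 778 and 648, and the difference of age changes from 1107 and 238 to 532 and 468. The number of genes with a 2-fold difference of age changes was 1345, and 660 with a pseudocount of 1.

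The limma strain fit called 542 genes, 210 with no filter, 1005 with the age block and 191 under 10% shared reads. Each library left out gave 468 to 3371 genes and 0 to 2 members, the 2 being Spib and Gfi1 without B6 week 4. The age block called 1 member, Spib. The log2 difference of Bcl11b was -0.087 with TMM, and ranged from -0.17 to 0.22 with each library left out, that of Spib from 0.34 to 1.37, that of Sfpi1 from -0.53 to 0.38 and that of Gfi1 from -0.085 to 0.56. The causes were not tested. A lone library of a strain was assumed to vary like the others. Depth limits Sfpi1 and Gfi1b, whose lowest values rest on 7 and 3 reads.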
